A study of Mus musculus with 12 samples.

Results

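The genes described here are 31 members of the tricarboxylic acid (TCA) cycle and of the routes by which pyruvate and malate enter and leave it, chosen by name and matched through their Ensembl identifiers to a table of 55450 genes. They encode the mitochondrial pyruvate carrier (*Mpc1*, *Mpc2*), the pyruvate dehydrogenase complex (*Pdha1*, *Pdhb*, *Dlat*, *Dld*, *Pdhx*) with its phosphatases (*Pdp1*, *Pdp2*, *Pdpr*) and kinases (*Pdk1*, *Pdk3*), pyruvate carboxylase (*Pcx*), enzymes of the cycle (*Cs*, *Idh3a*, *Idh3b*, *Idh3g*, *Ogdh*, *Dlst*, *Suclg1*, *Suclg2*, *Sucla2*, *Fh1*, *Mdh2*), related dehydrogenases and cytosolic aconitase (*Aco1*, *Idh1*, *Idh2*, *Mdh1*), and the malic enzymes (*Me1*, *Me2*, *Me3*). RNA was sequenced from tibialis anterior (TA) muscle, a limb muscle of mostly fast fibres, of WT mice of the 129Pas background at E18.5, the last days of gestation, and at 2 weeks and 7 weeks of age. Each age was represented by 4 mice with 1 library each (12 libraries), no group carried a mutant allele or received a treatment, and the sex of the mice is not given in the sources used here. All 31 genes passed the filter on low counts.

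Pyruvate made by glycolysis crosses the inner mitochondrial membrane through the pyruvate carrier and is turned into acetyl-CoA by pyruvate dehydrogenase, which its kinases switch off and its phosphatases switch on again. Citrate synthase joins acetyl-CoA to oxaloacetate, and the cycle then passes its electrons to the respiratory chain through NADH and succinate. Pyruvate carboxylase and the malic enzymes add to or draw from the pool of cycle intermediates, and cytosolic forms of several enzymes move the same metabolites outside the mitochondrion. In skeletal muscle the amount and the regulation of these enzymes are known to follow fibre type and the supply of glucose and fatty acids.

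Library totals were 89118984 to 123449246 counts at E18.5, 63018968 to 105211269 at 2 weeks and 71307973 to 97917908 at 7 weeks, and the lowest count of any of the 31 genes was 104, for *Pdk3* at 7 weeks. Levels are CPM, counts relative to library size scaled by TMM, and a change is called past the threshold at an adjusted p under 0.05 in edgeR's quasi-likelihood test over 19276 genes. The 7 skeletal muscle fibre markers summed to 6817 to 15070 CPM at E18.5, 132600 to 166900 CPM at 2 weeks and 154000 to 189400 CPM at 7 weeks, and all 7 rose from E18.5 to 2 weeks in the same edgeR fit. The 6 fibroblast markers summed to 5961 to 12270, 4464 to 6126 and 970.3 to 4078 CPM, and 3 of them fell in each interval. The 5 slow fibre markers summed to 388.1 to 827, 55.94 to 246.2 and 19.65 to 47.14 CPM, and 4 and then all 5 of them fell. Markers of red blood cells summed to 241.3 to 1025, 145.5 to 755.1 and 91.9 to 129.6 CPM, of nerve to 146.4 to 245.1, 133.3 to 627.9 and 100.1 to 152.1 CPM, and of cartilage and bone to 22.7 to 139.7, 2.97 to 21.1 and 0.781 to 2.54 CPM. The part of these shifts in the results below was not tested. In bulk RNA, fewer cells of a type and less RNA per cell cannot be told apart.

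A pair of E18.5 libraries stood apart. The 4 brown adipocyte markers (*Ucp1*, *Cidea*, *Elovl3*, *Cpt1b*) summed to 3.89 and 5.70 CPM in E18.5 replicates 1 and 2 and to 378.2 and 1307 CPM in replicates 3 and 4, against 8.19 to 23.1 CPM at 2 weeks and 3.47 to 8.51 CPM at 7 weeks. Of these 4 markers *Cpt1b* rose from E18.5 to 2 weeks, from 0.347 to 1.76 CPM up to 4.35 to 8.93 CPM, while the other 3 fell. *Ucp1*, the uncoupling protein that defines brown fat, was at 0.305, 0, 224.3 and 922.9 CPM in the E18.5 replicates. The 6 white adipocyte markers summed to 13.1, 17.4, 447.1 and 371 CPM in the same libraries. Replicates 3 and 4 were both above replicates 1 and 2 in 3 of 4 brown and 6 of 6 white adipocyte markers, and in 22 of the 31 genes described here (71%), against 15.5% of all genes tested. The part of adipocyte RNA in the E18.5 levels was not tested, and the counts of genes, with the changes that moved most, are given also without both libraries, an alternative chosen after the data were seen.

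From E18.5 to 2 weeks 20 of the 31 genes rose and 6 fell. In the edgeR fit 65.7% of all genes tested passed the threshold in this interval, 31.5% higher and 34.2% lower, so the share of the 31 genes that rose was above the background share and the share that fell was below it. The median change of the 31 genes was 1.17 on the log2 scale, against -0.09 for all genes tested. At E18.5 their levels summed to 5588 ± 2320 CPM (SD over 4 mice) and at 2 weeks to 14209 ± 1952 CPM. These sums rest on TMM, whose factors averaged 1.67 at E18.5, 0.876 at 2 weeks and 0.687 at 7 weeks. As a share of unscaled counts the 31 genes held 0.635 to 1.44% at E18.5, 1.12 to 1.34% at 2 weeks and 1.22 to 1.35% at 7 weeks. E18.5 overlapped the later ages through replicate 4 alone, at 1.44%. E18.5 replicates 1, 2 and 3, at 0.654, 0.635 and 0.993%, lay below every later library. Without E18.5 replicates 3 and 4 the counts were 23 and 5, with a median change of 1.55, against 5565 higher and 6008 lower of the 19940 genes then tested. Scaling each library to its total count instead of by TMM moved the median of all genes to -1.02 and that of the 31 genes to 0.23. Then 11 of the 31 genes were higher and 10 lower, against 2552 higher and 11917 lower of all 19276 genes tested. The 11 were all among the 20. The 9 rises lost under this scaling were those of *Pdhb*, *Dlat*, *Pdp1*, *Cs*, *Idh3a*, *Dlst*, *Sucla2*, *Fh1* and *Mdh1*, and the 4 falls gained were those of *Dld*, *Pcx*, *Idh2* and *Suclg2*. With the 20 top genes and those encoded in mitochondria left out of the library size, *Cs* and *Dlst* alone lost their rise.

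From 2 to 7 weeks 8 genes rose and 1 fell, with 27.5% of all genes tested past the threshold in edgeR, 13.5% higher and 13.9% lower. The median change was 0.37 on the log2 scale, against -0.03 for all genes, and the summed level at 7 weeks was 18585 ± 1124 CPM (SD, n = 4 mice). This count rested on single libraries: without 2 weeks replicate 1, or without 2 weeks replicate 2, *Me1* was the only gene that rose and *Pdk3* the only gene that fell, and without 7 weeks replicate 2 the count was 5. Scaled to the total count, *Me1* and *Pdpr* were higher and *Pdk3* and *Me2* lower, where 948 of all 19276 genes tested were higher and 5391 lower. *Me1* and *Pdk3* passed in each alternative run on single genes. In 12 fits that each lacked 1 library, *Pdp1* and *Me3* passed 10 times, *Pdk1* and *Pdpr* 9 times, *Mpc1* 6 times, *Pdha1* 4 times and *Suclg2* 3 times.

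Over the whole span from E18.5 to 7 weeks 23 genes rose and 5 fell, where edgeR called 71.4% of all genes, 34.3% higher and 37.1% lower. The median change was 1.54, against -0.09 for all genes. With scaling to the total count 11 genes were higher and 7 lower, where 2293 of all 19276 genes tested were higher and 13296 lower. The change before 2 weeks differed from the change after 2 weeks in 14 of the 31 genes, 10 with the more positive change in the first interval and 4 in the second, where 38.4% of all genes passed this edgeR test. Without E18.5 replicates 3 and 4 the changes differed in 21 of the 31 genes, 19 and 2 in these directions, where 33% of all genes passed. In the heatmap of all libraries most rows turn from blue to red at the step to 2 weeks, and in the plot of changes the points on the left panel lie farther from 0 than those on the right.

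**Figure D1:**
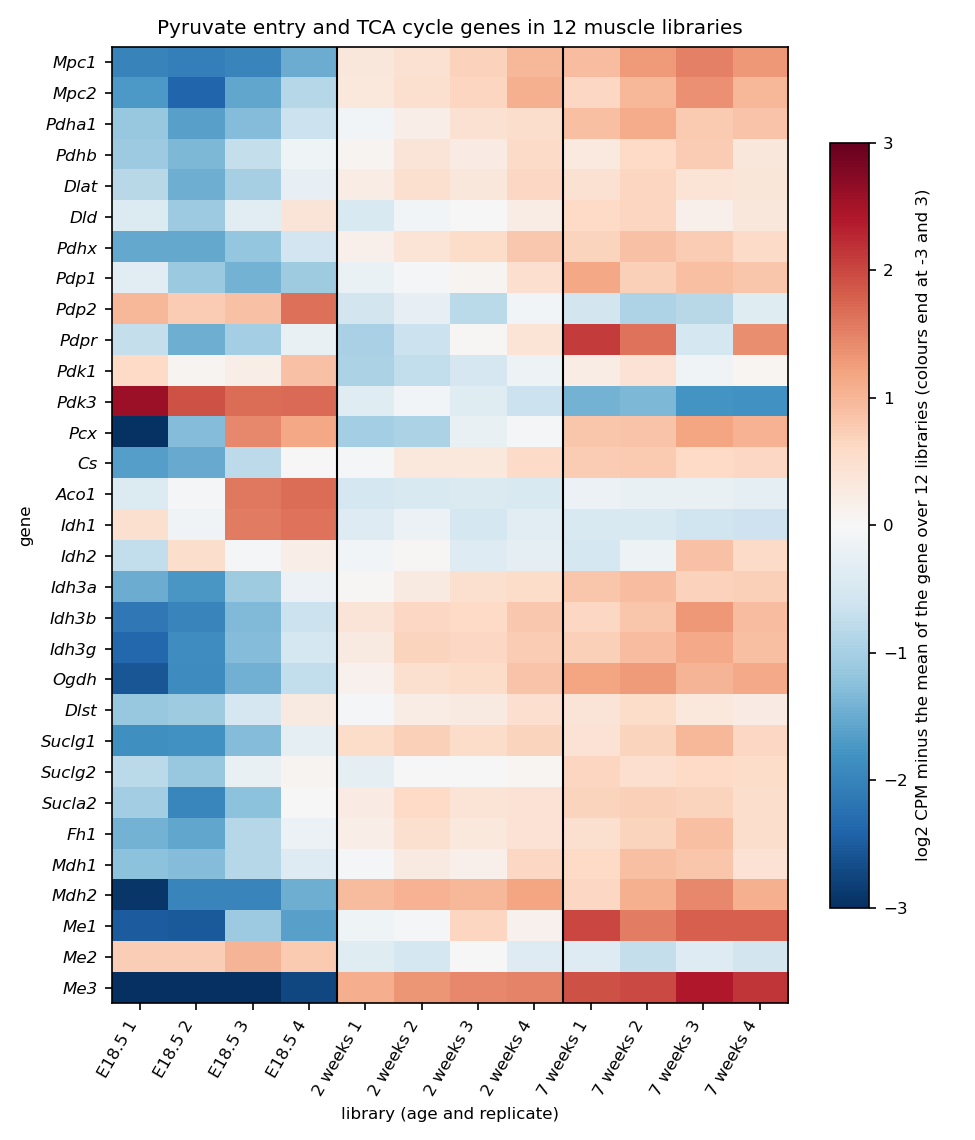
Each row is one of the 31 genes and each column one library, grouped by age. Colour gives log2 CPM minus the mean of that gene over the 12 libraries, with colours ending at -3 and 3. *Pdk3*, *Pdp2* and *Me2* run from red to blue while most other rows run from blue to red. *Aco1* and *Idh1* are reddest in E18.5 replicates 3 and 4, and *Pcx* is red there and at 7 weeks.

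**Figure D2:**
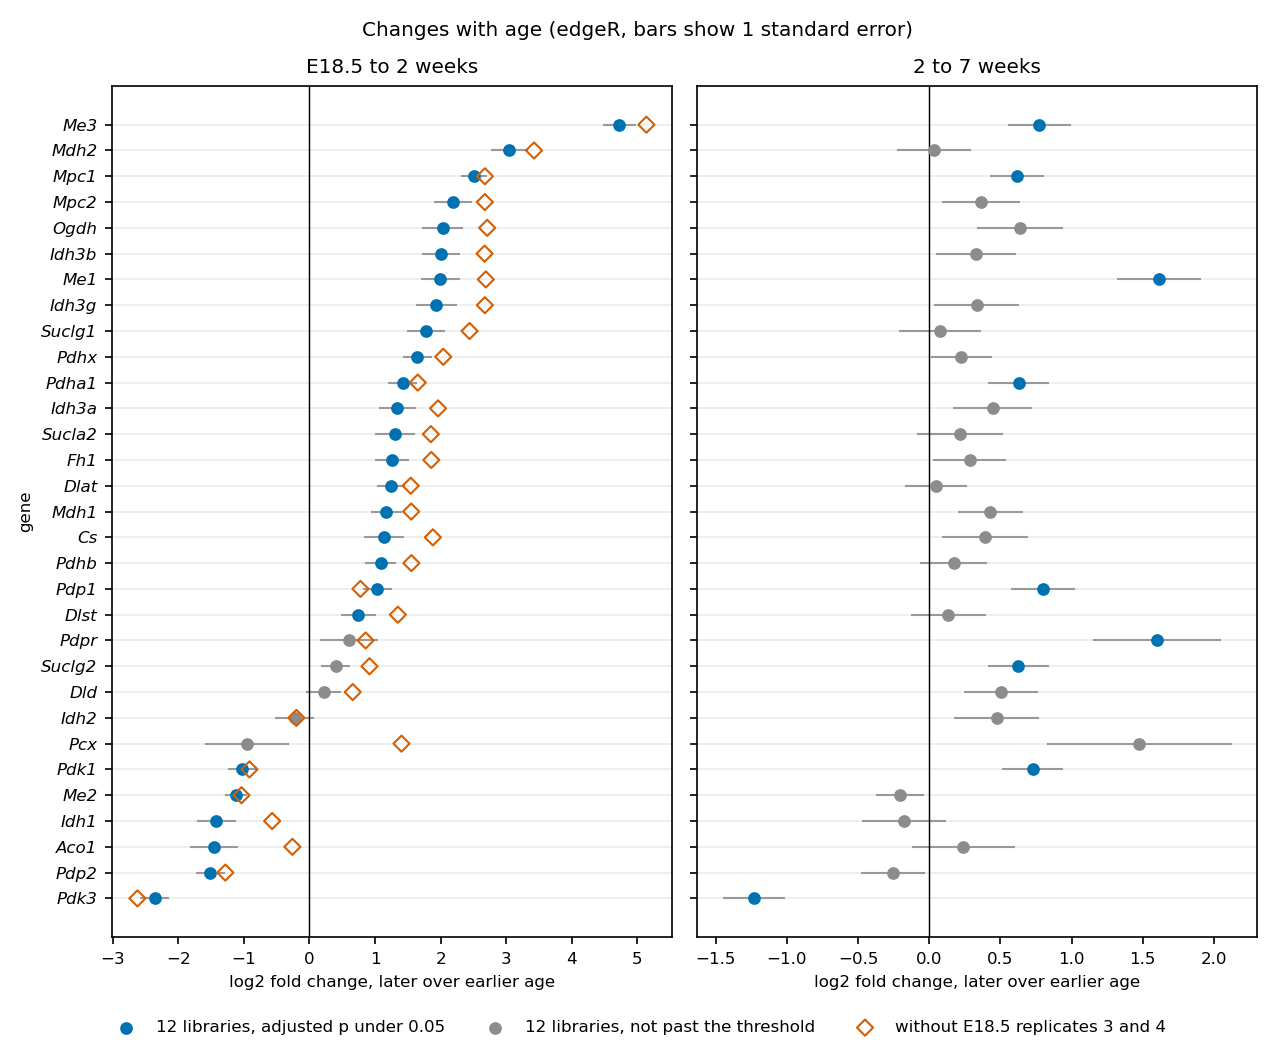
The log2 fold change of each gene from E18.5 to 2 weeks (left) and from 2 to 7 weeks (right), with 1 standard error, from the edgeR fit of 12 libraries. Blue points passed an adjusted p of 0.05, grey points did not, and open diamonds give the change without E18.5 replicates 3 and 4. *Me3* lies farthest to the right at 4.73 and *Pdk3* farthest to the left at -2.36, and the diamond of *Pcx* lies on the other side of 0.

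The start sites of the genes that moved most are shown by RefSeq windows of 300 bases on GRCm38.p6, 250 before and 50 after the annotated start. Such windows were found for 28 of the 31 genes (38 windows), all but *Pdp1*, *Idh3a* and *Me2*. The windows held a median of 21 CpG dinucleotides (range 2 to 47), against 7 in all 32851 windows, and their median GC content was 62.0% against 52.7%. The windows of *Me3*, the gene with the largest rise, of *Mdh2*, with the next largest, and of *Pdk3*, with the largest fall, are given with each CpG in capitals; they hold 15, 27 and 35 CpGs, and the *Pdk3* window is on the reverse strand. The last window, from *Ogdh*, has its 1 match to the estrogen-related receptor motif in capitals.
Me3, chr7:89632568-89632867, plus strand: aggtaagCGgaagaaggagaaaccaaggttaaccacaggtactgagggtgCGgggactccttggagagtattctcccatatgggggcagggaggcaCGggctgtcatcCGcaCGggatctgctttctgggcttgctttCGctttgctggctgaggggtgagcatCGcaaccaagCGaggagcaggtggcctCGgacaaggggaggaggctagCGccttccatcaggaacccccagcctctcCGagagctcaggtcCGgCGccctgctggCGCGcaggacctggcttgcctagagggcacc
Mdh2, chr5:135778399-135778698, plus strand: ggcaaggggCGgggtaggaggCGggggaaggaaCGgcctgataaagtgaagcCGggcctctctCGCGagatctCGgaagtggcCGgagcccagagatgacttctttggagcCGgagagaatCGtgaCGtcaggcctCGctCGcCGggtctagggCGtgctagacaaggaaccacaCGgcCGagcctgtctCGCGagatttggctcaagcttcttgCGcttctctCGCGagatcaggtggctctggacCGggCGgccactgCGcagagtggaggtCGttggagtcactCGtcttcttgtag
Pdk3, chrX:93832101-93832400, minus strand: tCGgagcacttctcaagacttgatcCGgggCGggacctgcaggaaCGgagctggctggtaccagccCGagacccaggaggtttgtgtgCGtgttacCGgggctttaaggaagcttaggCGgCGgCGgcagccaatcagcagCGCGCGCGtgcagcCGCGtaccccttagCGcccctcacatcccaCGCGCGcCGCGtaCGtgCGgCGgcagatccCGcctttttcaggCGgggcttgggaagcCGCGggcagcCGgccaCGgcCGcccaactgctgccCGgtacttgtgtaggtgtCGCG
Ogdh, chr11:6291920-6292219, plus strand: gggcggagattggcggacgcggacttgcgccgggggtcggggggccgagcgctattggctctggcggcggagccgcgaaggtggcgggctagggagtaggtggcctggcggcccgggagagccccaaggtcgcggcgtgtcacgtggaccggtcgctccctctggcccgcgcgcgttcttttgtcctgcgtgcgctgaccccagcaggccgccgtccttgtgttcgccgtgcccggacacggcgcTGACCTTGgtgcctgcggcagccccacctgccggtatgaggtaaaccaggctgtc

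A total of 5 short motifs were looked for on both strands of the windows. The motif of the estrogen-related receptors, CAAGGTCA, nuclear receptors known to bind genes of oxidative metabolism, was in 1 of 38 windows of these genes (2.63%) and in 1.56% of all windows; the match, read as TGACCTTG, begins 5 bases before the *Ogdh* start and runs across it. The NRF1 motif CGCATGCG was in 2 of 38 windows, which overlap and hold the same *Ogdh* site, and in 1.87% of all. The YY1 motif AAGATGGC was in 1 of 38, at *Idh3g*, and in 2.75% of all. The ETS motif CCGGAAGT was in 1 of 38, at *Dlst*, and in 3.89% of all. The E-box CAGCTG, a motif bound by MyoD, was in 4 of 38 windows, at *Dld*, *Pdk1* and both starts of *Pcx*, and in 16.3% of all. No match of one motif overlapped a match of another, and a match is a description of the letters only.

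Both genes of the mitochondrial pyruvate carrier rose before 2 weeks. *Mpc1* was at 39.9, 38.3, 40.1 and 56.8 CPM at E18.5, at 202, 219.3, 258.4 and 318.7 CPM at 2 weeks and at 304, 386.5, 450.9 and 388.8 CPM at 7 weeks. No E18.5 library came near the later ages, while 1 of the 7 weeks libraries lay within the range at 2 weeks. The change to 2 weeks was 2.51 ± 0.20 (log2, SE; 5.70-fold) with an adjusted p of 3.24e-07 in edgeR, and that to 7 weeks was 0.62 ± 0.19 with an adjusted p of 0.0272. *Mpc2*, the partner subunit, was at 33.6, 21.3, 37.8 and 61.3 CPM at E18.5, at 139.2, 155.5, 172.3 and 233.4 CPM at 2 weeks and at 170.2, 221.6, 288.4 and 222 CPM at 7 weeks. It rose 4.55-fold to 2 weeks with no overlap (log2 2.19 ± 0.29, edgeR adjusted p = 2.04e-05), and its later change of 0.37 did not pass. Without E18.5 replicates 3 and 4 the rises to 2 weeks were 2.67 for *Mpc1* and 2.67 for *Mpc2*.

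In the core of the pyruvate dehydrogenase complex 4 of 5 genes rose before 2 weeks. *Pdha1*, the subunit of the E1 enzyme that the kinases phosphorylate, was at 392.1, 277.9, 349.7 and 553.8 CPM at E18.5, at 808.1, 984.1, 1184 and 1234 CPM at 2 weeks and at 1609, 1851, 1484 and 1559 CPM at 7 weeks. Its 3 ages did not overlap, and it rose in both intervals, by 1.42 ± 0.22 and by 0.63 ± 0.21 on the log2 scale (edgeR adjusted p = 7.32e-05 and 0.0432). *Pdhb*, the other E1 subunit, rose 2.12-fold to 2 weeks, *Dlat*, the E2 acetyltransferase, 2.37-fold and *Pdhx*, which tethers E3 to the core, 3.12-fold, each with no overlap. None of these 3 passed the threshold from 2 to 7 weeks. With scaling to the total count *Pdha1* and *Pdhx* were the core genes that still rose to 2 weeks, while *Pdhb* was at 0.15 and *Dlat* at 0.32 on the log2 scale. *Dld*, the E3 dehydrogenase that this complex shares with the 2-oxoglutarate dehydrogenase and the glycine cleavage system, did not pass to 2 weeks (log2 0.21 ± 0.26): its levels ran from 213.7 to 597.4 CPM at E18.5 and from 332 to 532.2 CPM at 2 weeks. Without E18.5 replicates 3 and 4 the change of *Dld* was 0.66, with an adjusted p of 0.0408 in edgeR, and with scaling to the total count it was -0.72, with an adjusted p of 0.0174. Over the whole span *Dld* rose by 0.72 ± 0.26 (edgeR adjusted p = 0.024). That call was kept in 7 of 12 fits that each lacked 1 library, and with scaling to the total count the change was -0.55 (edgeR adjusted p = 0.0544).

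The regulators of the complex moved in opposite directions. *Pdk3*, a kinase that switches the complex off, was at 35.6, 22.8, 19.3 and 19.6 CPM at E18.5, at 4.66, 5.69, 4.70 and 3.89 CPM at 2 weeks and at 2.27, 2.36, 1.73 and 1.72 CPM at 7 weeks. The 3 ages did not overlap. It fell by 2.36 ± 0.22 on the log2 scale to 2 weeks (5.13-fold lower, edgeR adjusted p = 1.30e-06) and by 1.23 ± 0.22 to 7 weeks (2.35-fold lower, adjusted p = 0.00142). *Pdk1*, another of these kinases, was at 132.2, 93.2, 100.7 and 161.1 CPM at E18.5, at 45.4, 52.4, 61.8 and 79.7 CPM at 2 weeks and at 103, 119.3, 81.3 and 92.2 CPM at 7 weeks. The 2 weeks libraries were the lowest, without overlap with either neighbour. It fell by 1.03 ± 0.21 and then rose by 0.73 ± 0.21 on the log2 scale (edgeR adjusted p = 8.11e-04 and 0.0217), and both changes differed from each other (edgeR adjusted p = 0.0034).

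Among the phosphatases, *Pdp1*, the calcium-stimulated catalytic subunit of muscle, was at 50.4, 29.3, 23.5 and 30.1 CPM at E18.5, at 55.5, 60.6, 66.7 and 90.3 CPM at 2 weeks and at 140.4, 103.1, 118.5 and 112.2 CPM at 7 weeks. The ages did not overlap, and the rises were 1.04 ± 0.23 and 0.80 ± 0.22 on the log2 scale (edgeR adjusted p = 0.00115 and 0.0182). Scaled to the total count neither passed, at 0.10 and 0.46. *Pdp2*, the other catalytic subunit, was at 16.7, 14.3, 15.5 and 26.2 CPM at E18.5, at 5.68, 7.08, 4.79 and 7.94 CPM at 2 weeks and at 5.74, 4.43, 4.73 and 6.51 CPM at 7 weeks. It fell 2.85-fold to 2 weeks with no overlap (edgeR adjusted p = 6.15e-05), and the later ages overlapped. *Pdpr*, the regulatory subunit, was singled out for its spread after its values were seen. It was at 21.9, 27.2, 44.0 and 56.7 CPM at 2 weeks and at 181.6, 130.8, 29.5 and 112.7 CPM at 7 weeks, a change of 1.60 ± 0.45 (edgeR adjusted p = 0.0179), and 7 weeks replicate 3 lay within the range at 2 weeks. In the plots of levels by age the kinase and phosphatase pairs are set side by side.

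**Figure D3:**
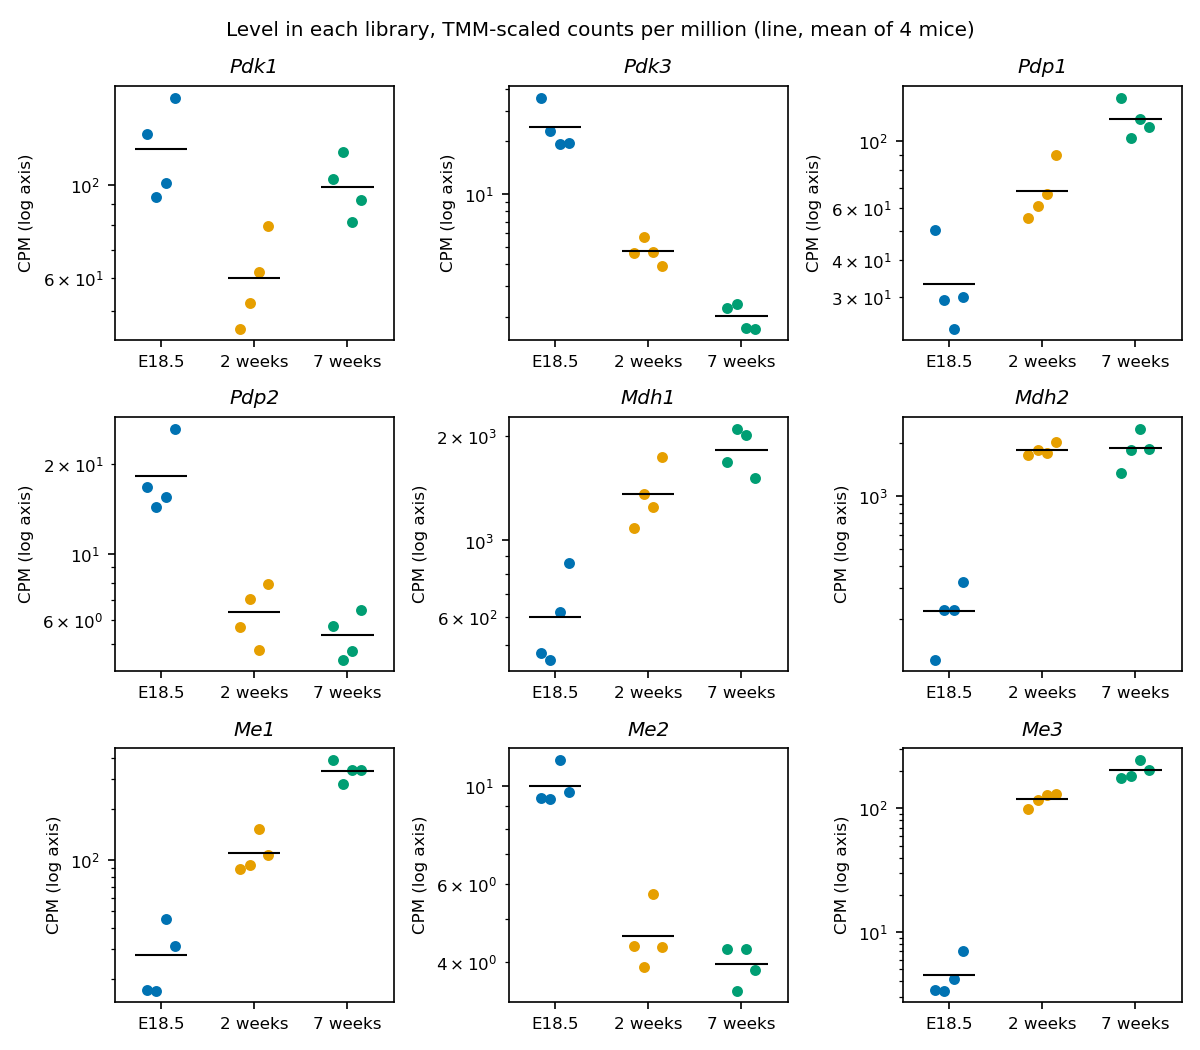
TMM-scaled CPM on log axes for 9 genes, with 1 point per mouse and a line at the mean of the 4 mice of an age. *Pdk3*, *Pdp2* and *Me2* are highest at E18.5, *Pdp1*, *Mdh1*, *Mdh2*, *Me1* and *Me3* are lowest there, and *Pdk1* is lowest at 2 weeks.

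*Pcx*, the enzyme that makes oxaloacetate from pyruvate, turned its direction with the E18.5 libraries used and was singled out after its values were seen. It was at 5.11, 16.3, 109.3 and 89.7 CPM at E18.5, at 19.8, 20.8, 34.0 and 38.9 CPM at 2 weeks and at 70.8, 72.5, 90.6 and 81.9 CPM at 7 weeks. The highest E18.5 library was 21.4 times the lowest, the widest spread of the 31 genes at that age, and the high libraries were replicates 3 and 4. With all libraries the change to 2 weeks was -0.96 ± 0.64 on the log2 scale and did not pass the threshold (edgeR adjusted p = 0.202); scaled to the total count it was -1.94 and passed (edgeR adjusted p = 0.014). Without replicates 3 and 4 it was 1.40 with an adjusted p of 0.0106, followed by 1.48 from 2 to 7 weeks with an adjusted p of 0.0058, both in edgeR. *Pcx* is known to be abundant in adipose tissue and in liver. The liver markers *Alb*, *Apoa1*, *Ttr* and *Serpina1a* summed to at most 0.546 CPM in any E18.5 library. The parts of adipocyte RNA and of RNA from any other cells in the level of *Pcx* were not tested.

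**Figure D4:**
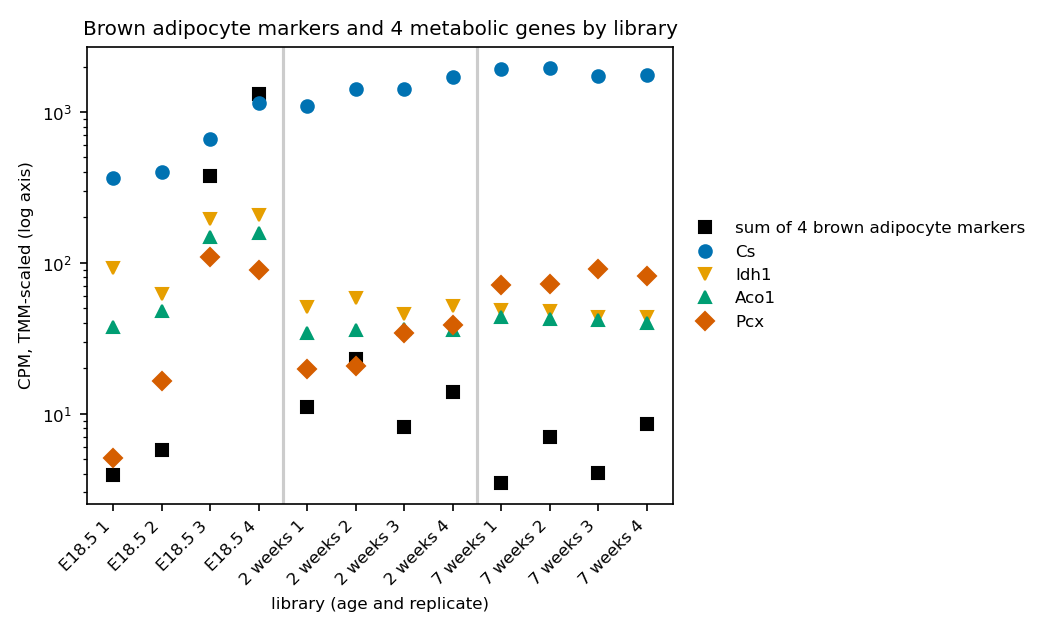
TMM-scaled CPM on a log axis in each of the 12 libraries, for the sum of 4 brown adipocyte markers and for *Cs*, *Idh1*, *Aco1* and *Pcx*; grey lines part the ages. The marker sum is 378.2 and 1307 CPM in E18.5 replicates 3 and 4 and at most 23.1 CPM in the other 10 libraries. *Pcx*, *Aco1* and *Idh1* are high in the same E18.5 replicates, and *Pcx* also at 7 weeks.

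*Cs*, citrate synthase, was at 364, 401.1, 659.3 and 1151 CPM at E18.5, at 1093, 1425, 1425 and 1697 CPM at 2 weeks and at 1939, 1966, 1737 and 1751 CPM at 7 weeks. E18.5 replicate 4 lay within the range at 2 weeks. The rise to 2 weeks was 2.19-fold (log2 1.13 ± 0.31, edgeR adjusted p = 0.00508), and without E18.5 replicates 3 and 4 it was 1.88 on the log2 scale. Scaled to the total count it was 0.19 and no longer passed (edgeR adjusted p = 0.563), nor did it at 0.63 with the 20 top genes and mitochondrially encoded genes left out of the library size (adjusted p = 0.0729). From 2 to 7 weeks the change of 0.39 ± 0.30 did not pass.

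The NAD-linked isocitrate dehydrogenase of the cycle rose in all 3 subunits before 2 weeks. *Idh3a*, its catalytic subunit, was at 279.4, 233.8, 372.6 and 692.8 CPM at E18.5, at 805.7, 943.5, 1092 and 1155 CPM at 2 weeks and at 1403, 1486, 1265 and 1286 CPM at 7 weeks. It rose 2.53-fold to 2 weeks, *Idh3b* 4.02-fold and *Idh3g* 3.83-fold, each with no overlap between E18.5 and 2 weeks, and none passed from 2 to 7 weeks. These rises were 1.96, 2.67 and 2.67 on the log2 scale without E18.5 replicates 3 and 4. Scaled to the total count, *Idh3b* and *Idh3g* still rose and *Idh3a* was at 0.40 (edgeR adjusted p = 0.184). *Idh3g* overlaps the muscle kinase gene *Srpk3* on the opposite strand by 1437 exonic bases, and the strand setting of the counting is not given in the sources used here. In all, 22 of the 31 genes share exonic bases with a gene on the opposite strand and none with one on the same strand.

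Neither NADP-linked isocitrate dehydrogenase, nor cytosolic aconitase, rose before 2 weeks. *Idh1*, the cytosolic isocitrate dehydrogenase that supplies NADPH, was at 92.2, 61.7, 195.2 and 206.5 CPM at E18.5, at 50.6, 58.9, 46.0 and 52.1 CPM at 2 weeks and at 48.4, 48.1, 44.0 and 43.4 CPM at 7 weeks. It fell by 1.42 ± 0.30 on the log2 scale to 2 weeks (2.68-fold lower, edgeR adjusted p = 9.08e-04), and without E18.5 replicates 3 and 4 the change was -0.57, still past the threshold. *Aco1*, which doubles as the iron-regulatory protein IRP1, was at 37.3, 47.8, 148.7 and 157.4 CPM at E18.5, at 34.4, 35.7, 36.3 and 35.7 CPM at 2 weeks and at 43.4, 42.4, 42.0 and 39.95 CPM at 7 weeks. With all libraries it fell by 1.46 ± 0.37 on the log2 scale (edgeR adjusted p = 0.00309), and without replicates 3 and 4 the change was -0.26 with an adjusted p of 0.165. *Idh2*, the mitochondrial NADP-linked form, was at 111.5, 266.8, 180.7 and 213.2 CPM at E18.5, at 174.8, 191, 140.9 and 153 CPM at 2 weeks and at 128.2, 166.3, 342.8 and 278 CPM at 7 weeks. Its ages overlapped in every comparison, and it did not pass the threshold in any of them with TMM. Scaled to the total count it was lower at 2 weeks, with a change of -1.15 (edgeR adjusted p = 0.00357).

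*Ogdh*, the first enzyme of the 2-oxoglutarate dehydrogenase complex and the gene whose window was shown with the receptor motif, was at 163.9, 263.1, 356.4 and 584.2 CPM at E18.5, at 1054, 1356, 1424 and 1755 CPM at 2 weeks and at 2211, 2351, 1973 and 2149 CPM at 7 weeks. Its ages did not overlap. It rose 4.09-fold to 2 weeks (log2 2.03 ± 0.31, edgeR adjusted p = 7.76e-05), by 2.71 on the log2 scale without E18.5 replicates 3 and 4, and the later change of 0.64 ± 0.30 did not pass with all libraries (adjusted p = 0.134) but did without E18.5 replicates 3 and 4 (adjusted p = 0.0369). *Dlst*, the succinyltransferase of the same complex, was at 232, 244.5, 361.3 and 614 CPM at E18.5, at 494.3, 597.4, 612 and 723.2 CPM at 2 weeks and at 669.1, 747.8, 639.4 and 607 CPM at 7 weeks. It rose by 0.74 ± 0.27 on the log2 scale to 2 weeks, the smallest change that passed in that interval (edgeR adjusted p = 0.0244), and its libraries overlapped. Its rise was 1.35 without E18.5 replicates 3 and 4, and scaled to the total count it was at -0.20 and did not pass. With *Dlst* left out of the called genes, as happened without E18.5 replicate 1, without E18.5 replicate 2 or without 2 weeks replicate 4, 19 genes rose.

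Succinyl-CoA synthetase pairs a common subunit with one that makes ATP or one that makes GTP. *Suclg1*, the common subunit, was at 89.8, 91.2, 129.6 and 263.4 CPM at E18.5, at 470.4, 525.7, 466.8 and 503.4 CPM at 2 weeks and at 431.3, 505.3, 639.9 and 494.6 CPM at 7 weeks. It rose 3.43-fold to 2 weeks (log2 1.78 ± 0.30, edgeR adjusted p = 1.47e-04), by 2.44 on the log2 scale without E18.5 replicates 3 and 4, and then stayed within an overlapping range. *Sucla2*, the ATP-forming subunit, was at 255.6, 134.3, 223.8 and 524.2 CPM at E18.5, at 622, 793, 691.6 and 707.7 CPM at 2 weeks and at 828.1, 863.8, 826.2 and 749.6 CPM at 7 weeks, and rose 2.47-fold to 2 weeks (edgeR adjusted p = 0.00195), a rise lost at 0.39 with scaling to the total count. *Suclg2*, the GTP-forming subunit, was at 42.8, 34.3, 63.9 and 79.9 CPM at E18.5, at 61.8, 76.0, 74.8 and 78.2 CPM at 2 weeks and at 116.8, 107.3, 113.7 and 110.3 CPM at 7 weeks. It did not pass to 2 weeks with all libraries (log2 0.40 ± 0.21) and passed at 0.91 without E18.5 replicates 3 and 4, while scaled to the total count it was lower, at -0.54 (edgeR adjusted p = 0.0346). From 2 to 7 weeks it rose by 0.62 ± 0.21 with no overlap (edgeR adjusted p = 0.0444).

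*Fh1*, fumarase, rose 2.39-fold to 2 weeks with no overlap (log2 1.26 ± 0.26, edgeR adjusted p = 7.47e-04); the change was 1.86 without E18.5 replicates 3 and 4 and 0.33, no longer past the threshold, when scaled to the total count. *Mdh2*, the malate dehydrogenase of the cycle, was at 116.7, 224.7, 224.8 and 323.2 CPM at E18.5, at 1709, 1828, 1768 and 2027 CPM at 2 weeks and at 1361, 1847, 2433 and 1871 CPM at 7 weeks. Every later library was above every E18.5 library, and the later ages overlapped. Its rise of 3.04 ± 0.28 on the log2 scale (8.24-fold, edgeR adjusted p = 1.20e-06) was the largest of any enzyme of the cycle, and the change after 2 weeks was 0.03 ± 0.26. *Mdh1*, the cytosolic form that works in the malate-aspartate shuttle, was at 474.9, 452.4, 619.9 and 863.4 CPM at E18.5, at 1086, 1363, 1250 and 1738 CPM at 2 weeks and at 1686, 2103, 2012 and 1518 CPM at 7 weeks, and rose 2.26-fold to 2 weeks (edgeR adjusted p = 5.31e-04), a rise lost at 0.23 with scaling to the total count.

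The 3 malic enzymes, which turn malate into pyruvate, moved in different directions. *Me3*, a mitochondrial NADP-linked form, was at 3.40, 3.35, 4.21 and 7.00 CPM at E18.5, at 99.4, 117.5, 127.4 and 131 CPM at 2 weeks and at 175.9, 183.9, 247.9 and 205.1 CPM at 7 weeks. The ages did not overlap. It rose 26.4-fold to 2 weeks (log2 4.73 ± 0.26, edgeR adjusted p = 1.20e-08) and 1.71-fold more to 7 weeks (log2 0.77 ± 0.22, adjusted p = 0.0189), and over the whole span it rose 45.2-fold. *Me1*, the cytosolic NADP-linked form known for supplying NADPH to fatty acid synthesis, was at 17.2, 17, 45.4 and 31.2 CPM at E18.5, at 88.4, 94.3, 152.1 and 106.8 CPM at 2 weeks and at 392.2, 282.8, 338.3 and 339 CPM at 7 weeks. It rose without overlap in both intervals, 3.98-fold and 3.06-fold (edgeR adjusted p = 5.82e-05 and 0.00157), the largest rise of the 31 genes from 2 to 7 weeks. Its first rise was 2.69 on the log2 scale without E18.5 replicates 3 and 4. *Me2*, the mitochondrial NAD-linked form, was at 9.40, 9.35, 11.5 and 9.69 CPM at E18.5, at 4.36, 3.91, 5.71 and 4.32 CPM at 2 weeks and at 4.29, 3.45, 4.27 and 3.84 CPM at 7 weeks. It fell 2.18-fold to 2 weeks with no overlap (edgeR adjusted p = 5.42e-05) and the later ages overlapped.

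Ratios of paired genes within a library do not depend on how libraries were scaled. Which gene of a pair is higher per kb rests on the use of canonical transcript lengths, while the change of a ratio between ages does not. Each of 15 pairs was compared in the 3 pairs of ages by a two-sided exact permutation test of the log2 ratio over 70 regroupings of 4 mice against 4, for which the smallest possible p is 0.029. Of the 45 tests 31 passed after Benjamini-Hochberg adjustment, each at an adjusted p of 0.0415 in this exact test: 11 from E18.5 to 2 weeks, 8 from 2 to 7 weeks and 12 over the whole span. These were the ratios with no overlap between the mice of the ages compared. Ratios of other gene pairs were not tested, so there is no background share for these counts. In 465 values of these 31 ratios under the alternatives run, 0 changed direction. Without overlap, leaving out or pairing mice cannot turn a direction, so this count is no test of stability.

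The *Me2* to *Me1* ratio, in counts per kb of transcript, was 0.456, 0.459, 0.211 and 0.259 at E18.5, 0.0412, 0.0346, 0.0313 and 0.0338 at 2 weeks and 0.00914, 0.0102, 0.0105 and 0.00946 at 7 weeks. It fell by 3.22 on the log2 scale, the largest change of any pair to 2 weeks, and then by 1.84. The *Me3* to *Me1* ratio was 0.179, 0.178, 0.0839 and 0.203 at E18.5, 1.02, 1.13, 0.759 and 1.11 at 2 weeks and 0.406, 0.589, 0.663 and 0.548 at 7 weeks, so it rose by 2.70 on the log2 scale and then fell by 0.87. Per kb, *Me1* was above *Me3* in every mouse at E18.5 and at 7 weeks, and *Me3* was above *Me1* in 3 of the 4 mice at 2 weeks.

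The *Pdp1* to *Pdp2* ratio was 3.69, 2.52, 1.86 and 1.41 at E18.5, 11.98, 10.5, 17.1 and 14.0 at 2 weeks and 30.1, 28.6, 30.7 and 21.1 at 7 weeks, and rose by 2.57 and by 1.05 on the log2 scale. The *Pdk1* to *Pdk3* ratio was 1.74, 1.91, 2.44 and 3.84 at E18.5, 4.55, 4.30, 6.15 and 9.57 at 2 weeks and 21.2, 23.6, 21.9 and 25.1 at 7 weeks, and rose by 1.30 and by 1.98. In both pairs the gene that was already the more abundant per kb gained on the other at each step.

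The *Mdh2* to *Mdh1* ratio was 0.410, 0.828, 0.605 and 0.624 at E18.5 and 2.62, 2.24, 2.36 and 1.94 at 2 weeks, a rise of 1.93 on the log2 scale. Per kb of canonical transcript, the mitochondrial form was below the cytosolic form in all 4 mice at E18.5 and above it in all 4 at 2 weeks. At 7 weeks the ratio was 1.35, 1.46, 2.02 and 2.06, and the later ages overlapped. The *Ogdh* to *Dlst* ratio was 0.348, 0.530, 0.486 and 0.468 at E18.5, 1.05, 1.12, 1.15 and 1.195 at 2 weeks and 1.63, 1.55, 1.52 and 1.74 at 7 weeks, rising by 1.32 and by 0.51. The *Idh3a* to *Idh2* ratio was 1.69, 0.592, 1.39 and 2.20 at E18.5 and 3.12, 3.34, 5.24 and 5.10 at 2 weeks, rising by 1.63, and was spread from 2.49 to 7.40 at 7 weeks.

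Within succinyl-CoA synthetase the *Sucla2* to *Suclg2* ratio was 6.86, 4.51, 4.03 and 7.55 at E18.5, 11.6, 12, 10.6 and 10.4 at 2 weeks and 8.15, 9.25, 8.36 and 7.81 at 7 weeks. It rose by 1.01 on the log2 scale and then fell by 0.41, both without overlap. The *Suclg1* to *Suclg2* ratio was 4.73, 6.01, 4.58 and 7.44 at E18.5, 17.2, 15.6, 14.1 and 14.5 at 2 weeks and 8.33, 10.6, 12.7 and 10.1 at 7 weeks, so it too rose, by 1.46, and then fell by 0.57 without overlap. For the pyruvate carrier and the E1 enzyme the change to 2 weeks was 0.25 for *Mpc1* to *Mpc2* and 0.30 for *Pdha1* to *Pdhb*, and neither passed (exact permutation p = 0.286 and 0.143). *Idh3a* fell against *Idh3b* by 0.67 and against *Idh3g* by 0.63.

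**Figure D5:**
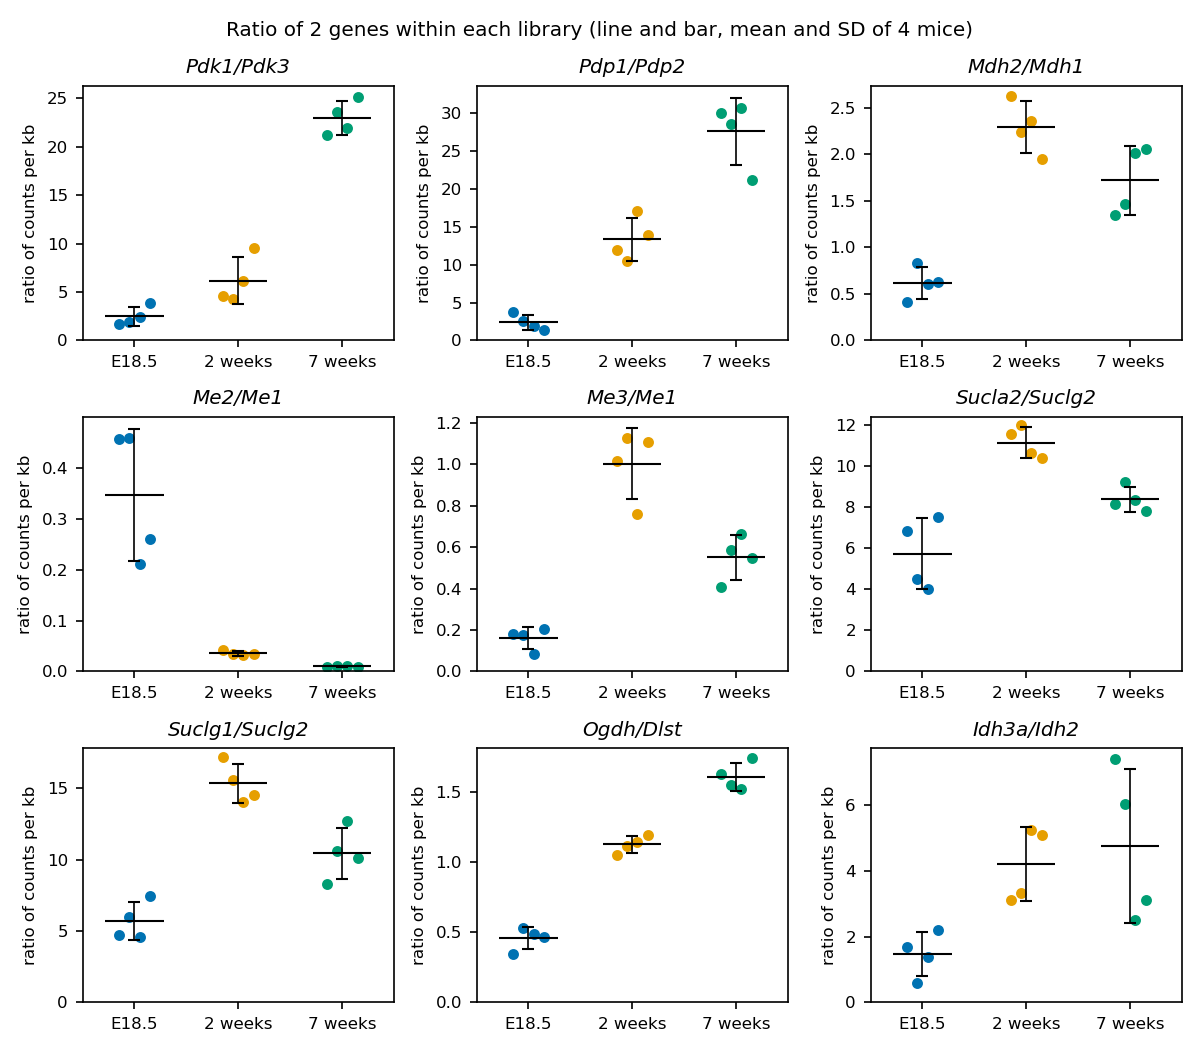
Ratio of 2 genes in counts per kb of transcript for 9 pairs, with 1 point per mouse and the mean and SD of the 4 mice of each age; axes start at 0. The ratios of *Pdk1* to *Pdk3*, *Pdp1* to *Pdp2* and *Ogdh* to *Dlst* rise at both steps without overlap, *Me2* to *Me1* falls at both, and *Me3* to *Me1* and both succinyl-CoA synthetase ratios peak at 2 weeks.

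Compared per kb of transcript, *Mdh1* had the highest mean level of the 31 genes at E18.5, 240.7 ± 75.5 CPM per kb (SD, n = 4), followed by *Cs* at 218.1 ± 122.9, with overlapping spreads. At 2 weeks *Mdh2* led at 1220 ± 91.8 CPM per kb, followed by *Mdh1* at 542.8 ± 111 and *Cs* at 477.6 ± 83.8. At 7 weeks the order of these 3 was the same, at 1250 ± 292, 730.7 ± 109.6 and 626.1 ± 41.0 CPM per kb, and only *Mdh2* stood clear of its neighbour by more than the spread. The lowest levels at 7 weeks were those of *Pdp2*, *Pdk3* and *Me2*, at 0.933 ± 0.167, 0.821 ± 0.140 and 0.795 ± 0.0807 CPM per kb, which did not differ beyond their spread. The order of genes per kb rests on the use of canonical transcript lengths.

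The spread between mice was itself uneven over the ages. The highest E18.5 library was a median of 2.64 times the lowest over the 31 genes, and more than 2 times in 23 of them, against medians of 1.46 at 2 weeks and 1.36 at 7 weeks. E18.5 replicate 4 was the highest of its age in 25 of 31 genes (80.6%), against 16.6% of all genes tested. At 2 weeks replicate 4 was the highest in 22 of the 31 genes and at 7 weeks in 1. Shares over all genes were not computed for these later ages. The narrowest spread at E18.5 was that of *Me2*, 1.22 times.

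Of 29 other genes of these routes, all tested, 18 rose and 6 fell from E18.5 to 2 weeks in the edgeR fit, 5 rose and 1 fell from 2 to 7 weeks, and 19 rose and 6 fell over the whole span. Of all genes tested 31.5% rose and 34.2% fell in the first interval, 13.5% and 13.9% in the second, and 34.3% and 37.1% over the span. Without E18.5 replicates 3 and 4 the counts were 20 and 4, 6 and 2, and 19 and 5. Of the 19940 genes then tested 5565 rose and 6008 fell, 2545 rose and 2593 fell, and 6147 rose and 6744 fell in the same order. Among them *Pdk2*, a further pyruvate dehydrogenase kinase, rose by 2.86 on the log2 scale to 2 weeks, from 39.99, 69.8, 67.2 and 90.1 CPM to 414.1, 497.9, 466.4 and 561 CPM. *Pdk4*, the kinase induced by fasting and fatty acids, rose by 2.69, from 65.5, 34.8, 66.7 and 327.6 CPM to 467.7, 1107, 714.6 and 906.9 CPM, and by 3.99 without E18.5 replicates 3 and 4. The kinases therefore split at this step, with *Pdk1* and *Pdk3* lower and *Pdk2* and *Pdk4* higher.

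The succinate dehydrogenase subunits *Sdhb* and *Sdhc* rose by 2.86 and 2.05 on the log2 scale to 2 weeks, and *Sdha* and *Sdhd* by 1.11 and 1.22. *Sdha* overlapped, with E18.5 replicate 4 at 805.7 CPM and 2 weeks replicate 1 at 799.9 CPM. The changes of the other pathway genes rest on TMM and were not read with scaling to the total count. Of the malate-aspartate shuttle, the transaminases *Got1* and *Got2* rose by 2.84 and 2.60 and the carriers *Slc25a12* and *Slc25a11* by 2.75 and 2.26, whereas *Slc25a13*, the aspartate-glutamate carrier best known from liver, fell by 1.53. *Ldha*, the lactate dehydrogenase subunit of fast muscle, rose by 2.38. *Ogdhl*, a relative of *Ogdh* known from brain, fell by 1.78, and *Dhtkd1* of lysine breakdown fell 2.14-fold. *Acly* and *Slc25a1*, which carry citrate carbon to cytosolic lipid synthesis, fell by 1.47 and 1.82. *Slc25a1* was at 6.04, 10.4, 37.9 and 28.7 CPM at E18.5 and 5.58 to 6.37 CPM at 2 weeks, and *Acly* at 64.6, 89.2, 152.7 and 144 CPM and 37.5 to 44.8 CPM, so both were highest in E18.5 replicates 3 and 4. Without these libraries the change of *Acly* was -0.92 and that of *Slc25a1* -0.48, which did not pass (edgeR adjusted p = 0.17). *Pck1*, which makes phosphoenolpyruvate from oxaloacetate in liver and fat, was at 1.12, 1.27, 67.4 and 113.8 CPM at E18.5 and at most 3.67 CPM at 2 weeks, so the high values behind its change of -4.77 ± 1.24 (edgeR adjusted p = 0.00397) were those of the E18.5 libraries with adipocyte markers. Without them the change was 0.49 and did not pass (edgeR adjusted p = 0.54).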

How the data were processed

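RNA was extracted from TA muscle with TRI Reagent, and libraries were made with a stranded poly(A) kit. Per the submitters' processing notes, the authors used bcl2fastq 2.17.1.14, cutadapt 1.10, STAR 2.5.3a and HTSeq 0.6.1p1. The deposited table gives whole-number read counts by Ensembl gene, with no scaling. The paper's methods name GRCm39 and the processing notes mm10; the annotation and the strand setting of the counting are not given in the sources used here. No coordinate of the files was used; gene names, transcript lengths (Ensembl canonical transcript) and overlaps come from GENCODE vM39, and promoter windows from RefSeq on GRCm38.p6.

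Counts of 12 libraries were fitted together with age as the only term in edgeR 4.0.16 (limma 3.58.1, R 4.3.3; TMM, filterByExpr, quasi-likelihood test). Of 55450 genes 19276 were tested and 36174 removed, with Benjamini-Hochberg adjustment across them and a threshold of 0.05. Each library is a separate mouse per the series' description; in all 18 pairs of replicates counts differed beyond counting error (chi-square per degree of freedom 34.3 to 577). Pathway lists, marker lists and the 31 genes were chosen with earlier results of these data known. Every one of the 31 genes was open to naming. Values in every library are given for those past the threshold with no overlap and among the 5 largest rises or falls in an interval, and for pairs whose ratio passed with a change of at least 1; other pathway genes are named where past the threshold with a change of at least 1 (log2). DESeq2 1.42.0 and other alternatives are given in the closing section. The fits were tested first on simulated counts in which a small set of genes changed, equally in both directions. That setting has no broad shift between ages, so it does not test the choice of library scaling. Ratios were tested with scipy 1.17.1 and figures drawn with matplotlib 3.10.9.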

Additional observations from a re-analysis of the deposited data

Results flagged for a closer look

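In 93 sets of 4 mice (31 genes at 3 ages), 2 held a library whose gap to the nearest other, divided by the range of the set, passed Dixon's critical value for 4 values. Chance alone gives about 1 such set in 20, or 4.65 of 93. *Mpc1* at E18.5 was at 56.8 CPM in replicate 4, against 38.3 to 40.1 CPM in the other 3. *Me2* at E18.5 was at 11.5 CPM in replicate 3, against 9.35 to 9.69 CPM in the other 3.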

How the results depend on the processing

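DESeq2 changed no call of the 31 genes in 93 fold changes. From 2 to 7 weeks 4 genes passed under total-count scaling, where 32.9% of all genes tested passed. With mitochondrially encoded genes and the 20 top genes left out of the library size 3 passed, against 29.8% of all genes. From E18.5 to 7 weeks the total count gave 18, against 80.9% of all genes. With each library left out in turn the counts ran from 25 to 27 (E18.5 to 2 weeks), from 2 to 10 (2 to 7 weeks), from 27 to 28 (E18.5 to 7 weeks) and from 8 to 22 (difference of the intervals). The lowest count from 2 to 7 weeks came without 2 weeks replicate 1 or replicate 2; of the difference, 22 came without E18.5 replicate 4 and 8 without 2 weeks replicate 4. With both E18.5 replicates 3 and 4 left out the counts were 28, 11, 28 and 21, against 58, 25.8, 64.6 and 33% of all genes. They were 25, 8, 25 and 21 with scaling to the total count as well, against 67.8, 30.6, 75.2 and 38.3%. Replicate numbers did not pair the mice (12 correlations of -0.142 to 0.284, 2 over 0.1); with the replicate number as a block the counts were 26, 10, 28 and 14, and *Pcx* was the 1 gene gained. Removing the trend over GC content gave 30, 6, 28 and 18. No filter on low counts gave 26, 7 and 28 in the comparisons of ages. The causes of these shifts were not tested.

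With the total count, whose median over all genes was -1.02, -0.38 and -1.36 in the 3 comparisons, changes that turned negative from E18.5 to 2 weeks were *Dld* -0.72, *Pdpr* -0.36, *Dlst* -0.20 and *Suclg2* -0.54. From 2 to 7 weeks they were *Pdhb* -0.17, *Dlat* -0.30, *Pdhx* -0.11, *Aco1* -0.11, *Idh3b* -0.018, *Idh3g* -0.010, *Dlst* -0.20, *Suclg1* -0.28, *Sucla2* -0.13, *Fh1* -0.067 and *Mdh2* -0.32, and from E18.5 to 7 weeks *Pdhb* -0.026, *Dld* -0.55, *Pcx* -0.79, *Idh2* -1.04, *Dlst* -0.40 and *Suclg2* -0.26. Without the most abundant and mitochondrial genes they were *Dld* -0.28 and *Suclg2* -0.097 to 2 weeks; *Pdhb* -0.097, *Dlat* -0.22, *Pdhx* -0.035, *Aco1* -0.031, *Dlst* -0.13, *Suclg1* -0.20, *Sucla2* -0.055 and *Mdh2* -0.24 from 2 to 7 weeks; and *Dld* -0.034, *Pcx* -0.27 and *Idh2* -0.52 over the whole span. With the GC trend removed *Dlat* was at -0.091 and *Suclg1* at -0.052 from 2 to 7 weeks, and *Pcx* at -0.017 over the whole span. Leaving out 1 mouse turned, from 2 to 7 weeks, *Dlat* (-0.026 to 0.12; without 2 weeks replicate 1, or -0.013 without 7 weeks replicate 2), *Mdh2* (-0.11 to 0.16; without 7 weeks replicate 3, or -0.011 without 2 weeks replicate 1) and *Suclg1* (-0.043 to 0.15; without 7 weeks replicate 3), and over the whole span *Idh2* (-0.0069 to 0.45; without 7 weeks replicate 3). Leaving out E18.5 replicates 3 and 4 turned *Pcx* to 1.40 to 2 weeks.

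Ratio tests with a mouse left out, with paired sign flips or without E18.5 replicates 3 and 4 have too few regroupings to pass, so only directions were read. The *Idh3a* to *Idh2* ratio from 2 to 7 weeks turned to -0.049 and -0.016 without 2 weeks replicates 1 and 2 and to -0.18 and -0.080 without 7 weeks replicates 1 and 2 (range -0.18 to 0.35 with each mouse left out), and *Mpc1* to *Mpc2* to -0.031 to 2 weeks without E18.5 replicates 3 and 4. Adding 0.5 to each count changed no ratio's call.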
